A study of Drosophila melanogaster with 40 samples.

Results

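RNA from heads of WT (Oregon Red w+) male flies fed mitoQ was compared between 10 days of chronic feeding and 24 h of acute feeding. The samples were taken by their labels, and they make up 13 of the 40 samples of the series, with 6 in the chronic and 7 in the acute group. All flies were 10 days old when frozen, and each sample was a separate pool of 20 heads, or of 21 in acute replicate 7. The labels give 100 µM mitoQ in vehicle, with DMSO as the vehicle of the series. The study's list of drugs gives EtOH as the solvent of mitoQ, and no group here was fed EtOH alone. Both mitoQ groups received drug in instant medium. The acute flies had lived on cornmeal-molasses food until then, so the length of exposure to the drug, to its solvent and to the instant medium cannot be told apart within this comparison. The DMSO arm (0.2% DMSO, 7 acute and 7 chronic samples) and the 2-AAPA arm (10 µM 2-AAPA, 6 acute and 7 chronic samples) were fed on the same schedules, and their values are given where they bear on the mitoQ result.

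MitoQ (mitoquinone mesylate) is a quinone like that of coenzyme Q, joined to a lipophilic cation that is drawn into mitochondria by their membrane potential. There the quinone can be reduced by the respiratory chain, and it is widely used to alter the level of mitochondrial reactive oxygen species. Flies meet a foreign compound in food with detoxifying enzymes of the cytochrome P450, UDP-glycosyltransferase and glutathione S-transferase families. They meet a change of diet with nutrient sensors such as the Mondo-Mlx transcription factors, which respond to sugars, and with insulin-like peptides.

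Total counts per library lay between 24777116 and 29228264 in the acute group and between 26500646 and 30104079 in the chronic group. Ribosomal RNA genes took 1.72 to 7.39% of the counts in the acute and 1.76 to 5.54% in the chronic samples. Chronic replicates 5 and 6 stood apart from the other mitoQ samples on the first principal component, which held 29.5% of the variance, so counts of calls are also given without them. As labelled, the RNA carried head markers. Photoreceptor and phototransduction genes summed to between 78431 and 93249 CPM (normalised counts, scaled to a common library size) in acute and between 82886 and 90770 CPM in chronic samples, and no member of the neuron, glia, muscle, hemocyte or fat body marker lists passed the threshold below. In pools of whole heads, fewer cells of a type and less RNA per cell cannot be told apart.

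Few features differed between 10 days and 24 h of mitoQ feeding. Of 11452 features tested (11268 genes and 184 families of transposable elements), 17 had an adjusted p under 0.05 in edgeR's quasi-likelihood test, which is 0.148% of those tested. Of these, 14 were higher and 3 lower after chronic feeding. At an unadjusted p under 0.05, 250 features (2.18%) were higher and 436 (3.81%) lower. The precision was enough to bound most genes, since 74.5% of the features had a 95% interval of the log2 fold change that lay wholly within 1.5-fold in either direction. Without chronic replicates 5 and 6 the count of calls fell to 6, all of them higher and all among the 17. With chronic replicate 5 alone left out it was 10, and with chronic replicate 6 alone left out it was 11. The groups did not overlap in CPM for 129 features, or 1.13% of those tested, and for 15 of the 17 that were called.

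**Figure D1:**
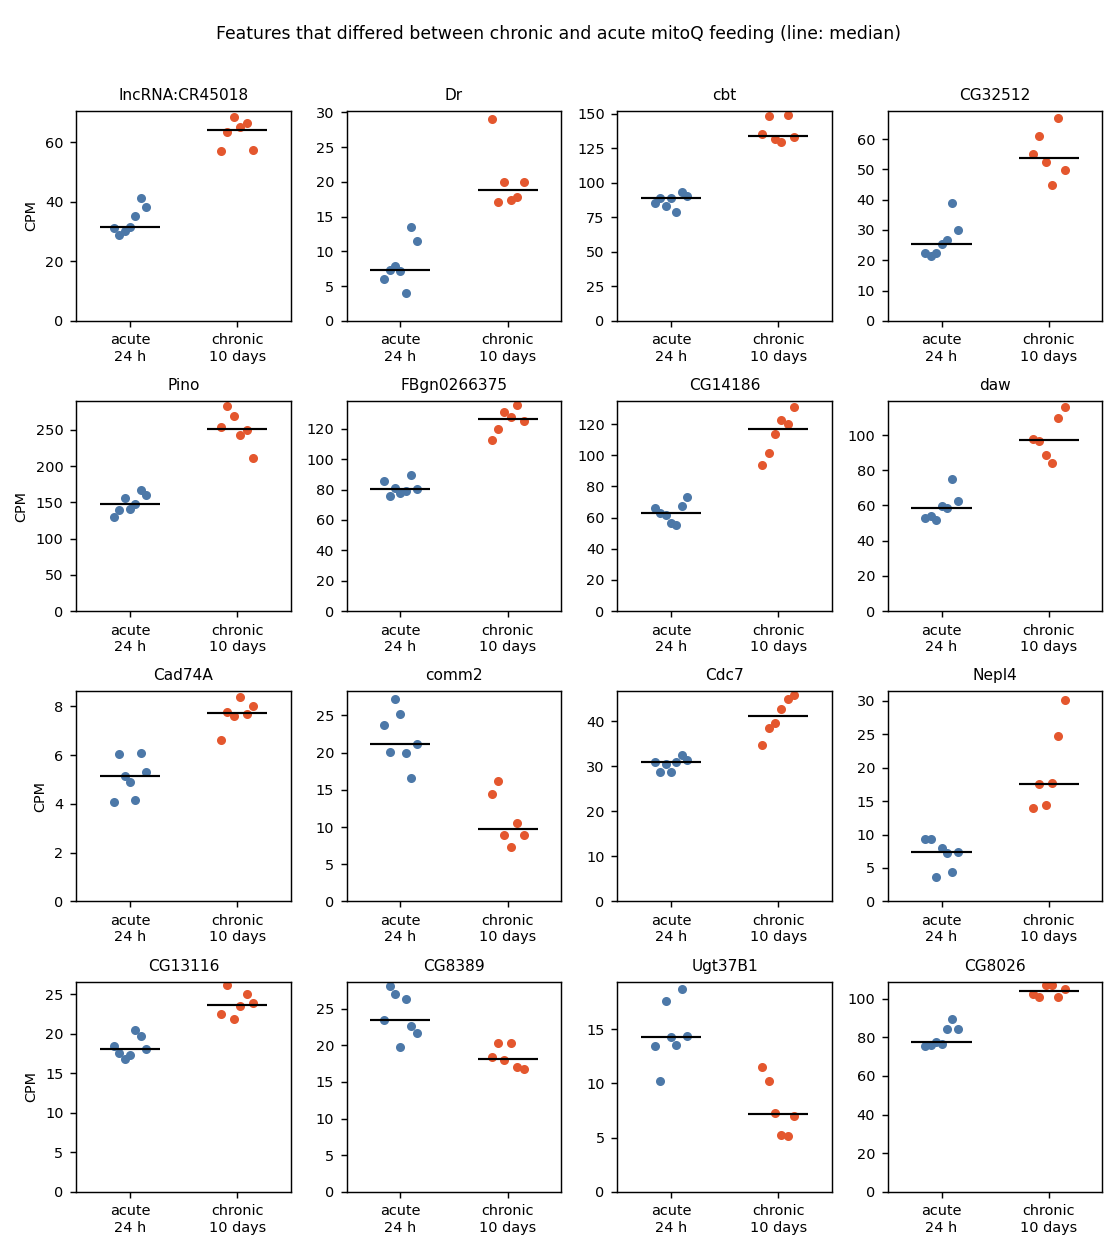
Normalised expression in CPM (y axis, from 0) of the called features in each of the 7 acute and 6 chronic mitoQ samples (points), with the group median (line). CG45085, which shares its position and nearly all its reads with CG8026, is not drawn. The groups overlap only for CG8389 and Ugt37B1.

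The gene cbt (cabut, 2L:476446-479688, minus strand) encodes a zinc finger transcription factor that acts downstream of the Mondo-Mlx sugar sensor and is also induced by JNK signalling. It lay between 79.0 and 93.7 CPM (median 88.9) in the acute samples and between 129.8 and 149 CPM (median 134) in the chronic samples. Every chronic sample was above every acute sample. The log2 fold change was 0.66 ± 0.11 (SE, adjusted p = 8.58e-04 by edgeR), or 1.58-fold, and cbt passed the threshold in each of the 25 alternative settings tried. On the opposite strand it overlaps ush, and the strand setting of the counting is not given in the sources used here.

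The gene daw (dawdle, 2L:2805261-2812376), a ligand of the Activin branch of TGF-β signalling and a known target of Mondo-Mlx, rose with it. Its CPM ran from 51.5 to 74.8 (median 58.8) in acute and from 84.3 to 116 (median 97.2) in chronic samples. The groups did not overlap, and the log2 fold change was 0.74 ± 0.13 (adjusted p = 0.00397 by edgeR). It no longer passed when chronic replicates 5 and 6 were both left out (log2 fold change 0.64, adjusted p = 0.184).

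Dr (Drop, 3R:29556386-29565244), a homeobox transcription factor of the Msx family known for its part in dorsoventral patterning of the nervous system, more than doubled. Acute samples had 4.01 to 13.5 CPM (median 7.25) and chronic samples 17.1 to 29.0 CPM (median 18.9). Chronic replicate 1 was the highest of all, and the lowest chronic sample was still above the highest acute one. The log2 fold change was 1.30 ± 0.20 (adjusted p = 8.57e-04 by edgeR), and it passed in every one of the 25 settings.

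CG14186 (3L:20098084-20103827), which belongs to the list of activity-regulated genes used here, lay at 55.4 to 73.3 CPM (median 63.2) after acute and 94.1 to 131 CPM (median 117) after chronic feeding. The ranges were well apart, and the log2 fold change was 0.85 ± 0.15 (adjusted p = 0.00331 by edgeR).

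Cad74A (3L:17367753-17379530), a member of the cadherin superfamily of adhesion proteins, was present at a low level of 4.09 to 6.07 CPM (median 5.16) in acute and 6.61 to 8.40 CPM (median 7.72) in chronic samples. Its log2 fold change was 0.59 ± 0.11 (adjusted p = 0.00579 by edgeR). Cad74A, comm2 and CG14186 each lost their call when chronic replicates 5 and 6 were both left out (adjusted p = 0.0868, 0.186 and 0.0868 by edgeR). The fall of comm2 (3L:15697594-15699850) was the largest of the 3 called falls. This gene is a relative of commissureless, which controls the delivery of the axon guidance receptor Robo to the surface of growing axons. It had 16.6 to 27.3 CPM (median 21.2) in acute and 7.35 to 16.2 CPM (median 9.75) in chronic samples. The highest chronic value lay just under the lowest acute value, and the log2 fold change was -0.99 ± 0.19 (adjusted p = 0.00781 by edgeR). Pino (2L:1114654-1128953), a gene known from odour-guided behaviour, was the most abundant of the called features. It rose from 129.7 to 167 CPM (median 148) in acute samples to 211 to 282 CPM (median 252) in chronic samples (log2 fold change 0.76 ± 0.13, adjusted p = 0.00175 by edgeR).

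Nepl4 (2L:6367882-6370190) encodes a neprilysin-like protein, a family of metallopeptidases that cleave small peptides. It had the largest log2 fold change of the called features, 1.49 ± 0.29 (adjusted p = 0.00894 by edgeR). Acute samples ranged from 3.61 to 9.40 CPM (median 7.38) and chronic samples from 14 to 30.1 CPM (median 17.6). The chronic samples were widely spread but did not reach down to the acute ones. The gene lost its call when chronic replicate 5 or chronic replicate 6 was left out. Cdc7 (X:6654541-6659709), the kinase that starts DNA replication at origins, showed a small difference, from 28.6 to 32.4 CPM (median 30.8) in acute to 34.6 to 45.7 CPM (median 41.1) in chronic samples. Its log2 fold change of 0.43 ± 0.08 (adjusted p = 0.00873 by edgeR) was under 1.5-fold. The call of Cdc7 was lost in 5 of 25 settings, among them without chronic replicate 5 and without chronic replicate 6.

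Of the genes with a metabolic role, Ugt37B1 (2L:6225048-6226842) was lower after chronic feeding. It is a UDP-glycosyltransferase, one of the enzymes that attach sugars to lipophilic compounds so that they can be excreted. Acute samples had 10.3 to 18.7 CPM (median 14.3) and chronic samples 5.12 to 11.5 CPM (median 7.13). The groups overlapped between the lowest acute and the highest chronic samples. The log2 fold change was -0.92 ± 0.19 (adjusted p = 0.0253 by edgeR), and it was one of the least stable calls, lost in 10 of 25 settings. CG8389 was also lower, at 19.8 to 28.2 CPM (median 23.4) in acute and 16.7 to 20.4 CPM (median 18.2) in chronic samples (log2 fold change -0.39 ± 0.08, adjusted p = 0.0229 by edgeR). Its groups overlapped as well, and its call was lost in 9 of 25 settings, among them the fit of the 13 mitoQ samples alone. On the opposite strand CG8389 overlaps CG8388 and Prosbeta1, so its reads may not be separable from theirs.

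CG8026, predicted to encode a carrier of the mitochondrial inner membrane, was also slightly higher. It lay at 75.7 to 89.5 CPM (median 77.5) in acute and 101 to 107 CPM (median 104) in chronic samples, and the log2 fold change was 0.37 ± 0.08 (adjusted p = 0.0253 by edgeR). CG45085 has the same start, end and strand in the Ensembl annotation of BDGP6 and almost the same counts, so both calls stand for 1 locus. They were lost in 15 of 25 settings.

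The remaining called features have no role that can be stated here. lncRNA:CR45018, a non-coding RNA at X:13304005-13308004, had the smallest p of all. It ran from 28.7 to 41.2 CPM (median 31.3) in acute and from 57.1 to 68.6 CPM (median 64.2) in chronic samples. The log2 fold change was 0.90 ± 0.13 (adjusted p = 7.71e-04 by edgeR). It lies on the same strand within the annotated span of IP3K2, so its reads and those of that gene may not be separable. FBgn0266375, which the annotations used here do not name, ran from 76.0 to 89.7 CPM in acute and from 113 to 135 CPM in chronic samples. It has no position there, so its overlap with other features, lncRNA:CR45018 included, is not known. CG32512 doubled, from 21.3 to 38.8 CPM (median 25.4) to 44.8 to 67.1 CPM (median 53.7), and its log2 fold change was 1.05 ± 0.17. It overlaps an insertion of the transposable element roo on the same strand and bves on the opposite strand, so its reads may not be separable from theirs. CG13116 went from a median of 18.0 to a median of 23.7 CPM, and its call was lost in 6 of 25 settings. It overlaps Nckx30C on the opposite strand, so its reads may not be separable from that gene's. The groups of all 4 were apart, and CG13116 was the only one of them under 1.5-fold. Together with cbt, Dr and Pino, lncRNA:CR45018, FBgn0266375 and CG32512 were the 6 features called in every setting.

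The same features differed between schedules in the other arms. In the DMSO arm, with chronic replicate 7 left out of the fit, 137 features (1.2% of those tested) and in the 2-AAPA arm 564 features (4.92%) passed the same threshold. All 17 features called in the mitoQ arm had the same sign in both other arms. In the DMSO arm 16 of them passed as well, the exception being Nepl4 (log2 fold change 0.98, adjusted p = 0.0774 by edgeR). In the 2-AAPA arm 16 also passed, the exception being Cad74A (0.33, adjusted p = 0.0792 by edgeR). For cbt the log2 fold change was 0.66 with mitoQ, 0.63 with DMSO and 0.60 with 2-AAPA. For daw it was 0.74, 0.65 and 0.69, and for comm2 -0.99, -1.04 and -1.43. The 3 arms share no sample, but they were fitted with 1 common estimate of the spread.

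**Figure D2:**
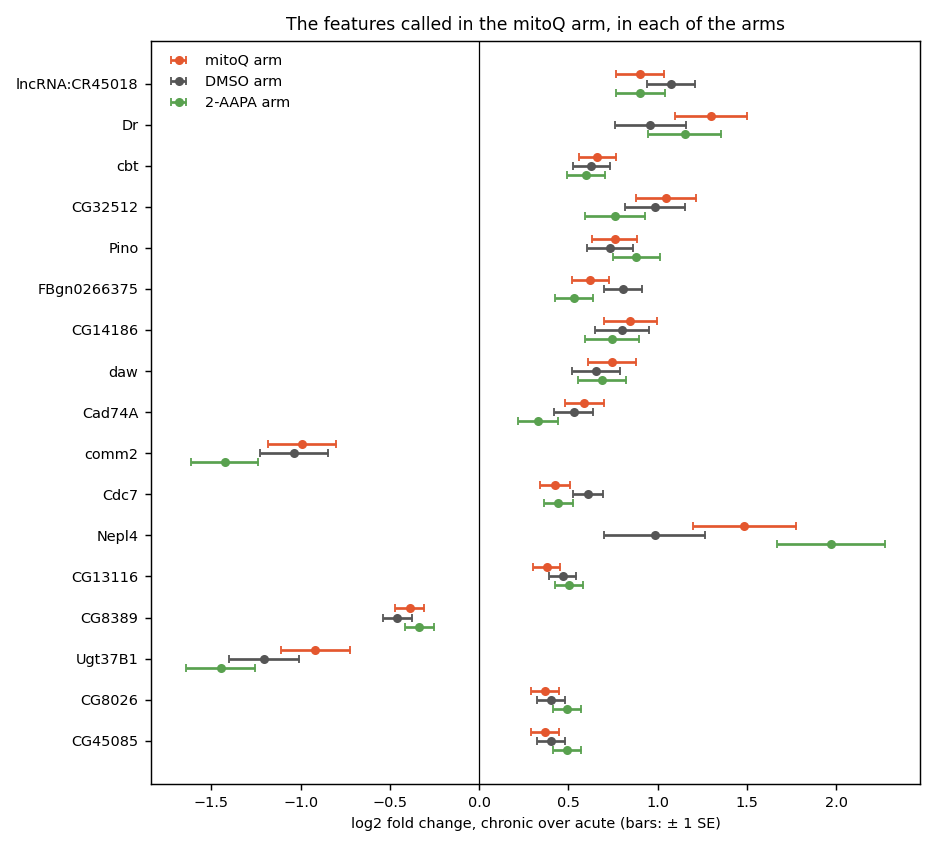
Log2 fold change of chronic over acute feeding (x axis) with its SE (bars) for the 17 features called in the mitoQ arm, in the mitoQ arm and in the DMSO and 2-AAPA arms (colours). All the points of a feature lie on 1 side of 0, and Nepl4 and Ugt37B1 have the widest gaps between arms.

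The difference between arms was then tested directly. For no feature did the chronic-against-acute change differ between the mitoQ and the DMSO arm (0 of 11452 at an adjusted p under 0.05 by edgeR, 194 at an unadjusted p under 0.05, and 1 by DESeq2). The smallest adjusted p was 0.653, of alphaTub85E. The comparison with the 2-AAPA arm also gave 0 features by edgeR, with 472 at an unadjusted p under 0.05 and 2 by DESeq2. Among the 17 called features, the change with mitoQ minus that with DMSO lay between -0.18 and 0.50 on the log2 scale. For Nepl4, at the upper end, it was 0.50 ± 0.40 (SE). For Dr it was 0.34 ± 0.28 and for cbt 0.03 ± 0.15. These errors leave room for differences between arms, so the arms are not shown to act alike.

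Of the genes of sugar sensing, digestion and sugar transport, 20 of 27 in the table were tested. The 2 that passed were cbt and daw, beside 0.148% of all features, and the list was drawn up with earlier results of these data known. At an unadjusted p under 0.05, 3 of the 20 (15%) were higher and 3 (15%) lower. Over all features these shares were 2.18% and 3.81%. The third known transcriptional target of Mondo-Mlx on the list, the zinc finger gene sug (sugarbabe), had 45.2 to 63.1 CPM (median 49.9) in acute and 58.1 to 122 CPM (median 77.6) in chronic samples. Its log2 fold change was 0.67 ± 0.16 with an adjusted p of 0.0765 by edgeR, outside the threshold, and its groups overlapped by 1 chronic sample. It passed with DESeq2 (adjusted p = 0.0134), with a replicate block (0.0338 by edgeR) and without chronic replicate 4 (0.0311 by edgeR). It did not pass in the other settings tried. Without chronic replicates 5 and 6 its log2 fold change was 0.48 (adjusted p = 0.716 by edgeR). Mondo itself was level at 0.01. Digestive enzymes had negative values that did not pass. The amylases Amy-p and Amy-d, near-identical copies whose reads can be split between them, stood at -0.70 and -0.72 (adjusted p = 0.811 for both by edgeR). The α-glucosidase gene tobi, known as a target of brain insulin, stood at -1.09 ± 0.34 (adjusted p = 0.334 by edgeR), with 114 to 236 CPM (median 142) in acute and 33.6 to 122 CPM (median 68.2) in chronic samples. The list's median log2 fold change was -0.07, beside -0.003 over all features tested.

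All 11 tested members of the list of JNK targets and activity-regulated genes had positive log2 fold changes, with a median of 0.26. The 2 that passed the threshold were cbt and CG14186. The whole list was drawn up with earlier results of these data known, so its signs and counts are not an independent test of these functions. Of the others, sr (stripe), an EGR-family transcription factor, had 4.20 to 7.34 CPM in acute and 7.78 to 13.9 CPM in chronic samples. These ranges were apart, but its log2 fold change of 0.69 ± 0.23 did not pass (adjusted p = 0.386 by edgeR). The nuclear receptor gene Hr38 stood at 0.56 and puc, the phosphatase that restrains JNK, at 0.26. At an unadjusted p under 0.05, 4 of the 11 were higher and 0 lower, the 2 called genes included, beside 2.18% higher and 3.81% lower of all features.

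**Figure D3:**
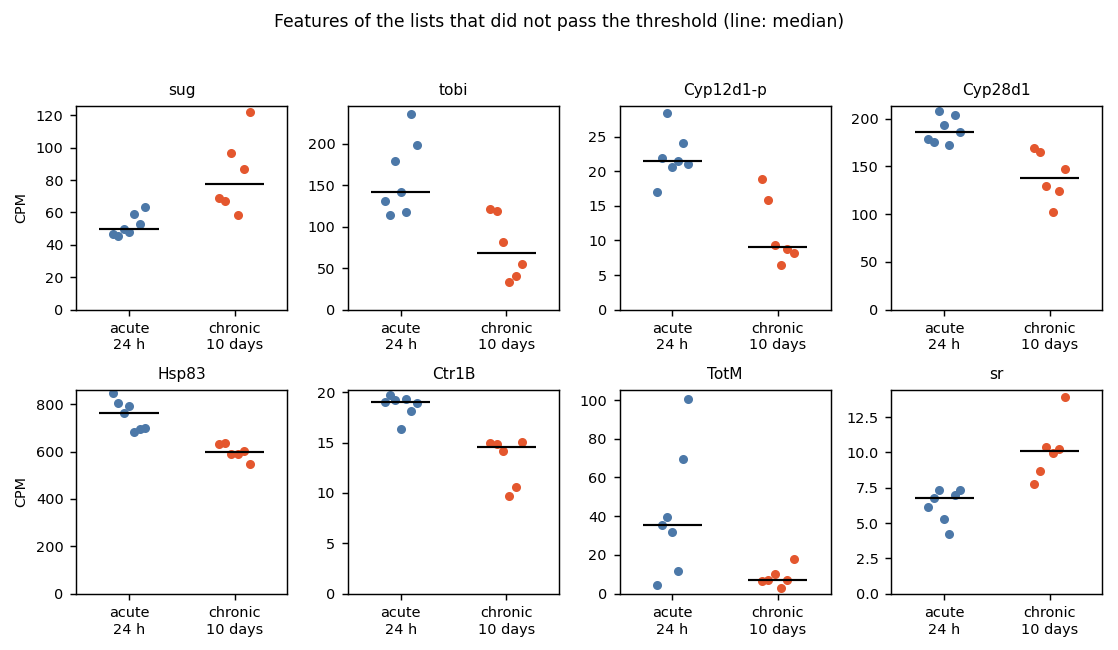
CPM (y axis, from 0) of 8 members of the gene lists that did not pass the threshold, in each of the 7 acute and 6 chronic mitoQ samples (points) with the group median (line). Ranges are apart for Cyp28d1, Hsp83, Ctr1B and sr, and overlap for sug, tobi, Cyp12d1-p and TotM.

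Of 80 cytochrome P450 genes tested, 0 were called, while 15 (18.8%) were lower and 2 (2.5%) higher at an unadjusted p under 0.05, and 67 (83.8%) had a negative log2 fold change. Over all features these shares were 3.81% lower, 2.18% higher and 50.9% negative. Cyp12d1-p had 17.0 to 28.3 CPM (median 21.5) in acute and 6.40 to 18.8 CPM (median 9.08) in chronic samples (log2 fold change -0.98 ± 0.28, adjusted p = 0.205 by edgeR). Its near-identical copy Cyp12d1-d stood at -0.96, and reads may be shared between them. Cyp28d1 fell short of the threshold although its groups were apart (172 to 208 CPM against 103 to 169.7 CPM, log2 fold change -0.43 ± 0.13, adjusted p = 0.281 by edgeR). Of 24 UDP-glycosyltransferases, Ugt37B1 alone passed, 4 (16.7%) were lower at an unadjusted p under 0.05 and 18 (75%) had a negative value. Of 32 glutathione S-transferases 0 passed, and the smallest p was that of GstE8 (-0.29 ± 0.10, adjusted p = 0.444 by edgeR). Of these genes 27 had a negative value, with a median of -0.14, and with the length covariate described below 20 did, with a median of -0.02. Larval serum and fat body proteins had 0 calls. Of 8 tested, 3 (37.5%) were lower at an unadjusted p under 0.05, namely Lsp1alpha (-1.55 ± 0.54), Lsp2 (-1.09 ± 0.45) and fit (-0.80 ± 0.36). Without chronic replicates 5 and 6, 1 of 9 tested (11.1%) was lower, beside 3.22% of all features. There Lsp2 stood at -0.71 (unadjusted p = 0.149 by edgeR) and fit at -0.52 (unadjusted p = 0.194 by edgeR). The summed level of the list was 5807 to 8473 CPM in acute and 4065 to 9154 CPM in chronic samples. Its part in the values of tobi and of the detoxifying enzymes was not tested.

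Heat shock, Bomanin, Turandot and antimicrobial peptide genes gave 0 calls. Hsp83, the fly Hsp90 chaperone, came closest among 18 heat shock genes. It lay at 684 to 846 CPM (median 762) in acute and 548 to 638 CPM (median 597) in chronic samples, without overlap, and its log2 fold change of -0.33 ± 0.08 had an adjusted p of 0.0765 by edgeR. It passed in the fit of the 13 mitoQ samples (0.0497 by edgeR) and with the ribosomal RNA share as covariate (0.0314 by edgeR). It also passed with DESeq2 (adjusted p = 0.00627). It did not pass in any fit with each mitoQ sample left out in turn. Without chronic replicates 5 and 6 the log2 fold change of Hsp83 was -0.30 (adjusted p = 0.659 by edgeR). Hsp70Aa stood at -0.24 and DnaJ-1 at -0.23. Among 16 Bomanin and Turandot genes, which encode small peptides induced by infection and stress, 14 had negative values, and the median was -0.43. TotM was the most extreme of the named members at -2.29 ± 0.78 (adjusted p = 0.418 by edgeR). Its acute samples alone spanned 4.62 to 100.4 CPM and its chronic samples 3.05 to 17.8 CPM. Of 11 antimicrobial peptide genes 0 passed, and 8 had negative values, against 2 with the length covariate described below. Ctr1B, a plasma membrane copper transporter, had 16.3 to 19.7 CPM in acute and 9.71 to 15.1 CPM in chronic samples (log2 fold change -0.50 ± 0.13, adjusted p = 0.148 by edgeR).

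Hormone, neuropeptide and clock genes gave 0 calls. The insulin-like peptide genes Ilp5 and Ilp2 had log2 fold changes of -0.45 ± 0.16 and -0.33 ± 0.14 (adjusted p = 0.444 and 0.766 by edgeR). The neuropeptide gene CNMa stood at 0.96 ± 0.29 (adjusted p = 0.274 by edgeR), from a median of 1.39 CPM in acute to 3.22 CPM in chronic samples, and passed in the fit of the 13 mitoQ samples alone (adjusted p = 0.0241 by edgeR). CCHa2, a nutrient-responsive peptide gene, stood at -0.47 ± 0.16 (adjusted p = 0.415 by edgeR) and Jheh3, a juvenile hormone epoxide hydrolase gene, at -0.21 ± 0.08 (adjusted p = 0.63 by edgeR). ETH, the ecdysis triggering hormone gene, was low, at 0.421 to 0.770 CPM in acute and 0.222 to 0.636 CPM in chronic samples (-0.67 ± 0.26, unadjusted p = 0.0158 by edgeR). Of 16 clock genes 0 passed. At an unadjusted p under 0.05 cwo (0.41 ± 0.14) and per (0.21 ± 0.09) were higher and none was lower. The share higher was 12.5%, beside 2.18% of all features. Without chronic replicates 5 and 6 the unadjusted p by edgeR was 0.043 for cwo and 0.239 for per. With the length covariate described below it was 0.0163 for cwo and 0.0678 for per.

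Genes closest to the known action of mitoQ did not differ detectably between 10 days and 24 h of feeding. Both groups received mitoQ, so this comparison does not show whether the drug alters these genes. Of 9 coenzyme Q synthesis genes, 0 passed at either an adjusted or an unadjusted p under 0.05, and their log2 fold changes lay between -0.10 and 0.12. All 9 had an interval within 1.5-fold, so larger changes than that are bounded for each of them. Of 12 superoxide dismutases, catalases and peroxidases, 0 passed. At an unadjusted p under 0.05, 1 (Cat) was lower, which is 8.33% beside 3.81% of all features. A negative value was seen for 10 of the 12, and for 1 with the length covariate described below. Sod1 had 352 to 483 CPM in acute and 317 to 407 CPM in chronic samples (-0.10 ± 0.12), Sod2, the mitochondrial enzyme, stood at -0.10 ± 0.13, and Cat, which breaks down hydrogen peroxide, at -0.20 ± 0.09 (adjusted p = 0.8 by edgeR). All 12 intervals lay within 1.5-fold. Of 14 genes of thioredoxin, glutathione synthesis and the cnc-Keap1 pathway 0 passed, with Keap1 at 0.17 ± 0.08 and Gclm, a subunit of the enzyme that makes glutathione, at -0.20 ± 0.12. Keap1 was the only 1 of them higher at an unadjusted p under 0.05 (7.14%, beside 2.18% of all features), and 0 were lower. All 14 intervals lay within 1.5-fold.

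Nuclear genes of the respiratory chain (74 tested) gave 0 calls, and 70 of them had a slightly negative value with a median of -0.07. Cytosolic ribosomal proteins (80 tested) gave 0 calls, with 77 negative and a median of -0.10, and synaptic vesicle and active zone genes (21 tested) gave 0 calls, with 19 positive and a median of 0.21. Proteasome subunits, mitochondrial ribosomal proteins, mitochondrial chaperones and mitophagy genes, autophagy genes and genes of the unfolded protein response in the ER also had 0 calls. Of the 184 families of transposable elements 0 were called, and the smallest p was that of Gypsy4_LTR (-0.48 ± 0.20, adjusted p = 0.73 by edgeR).

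**Figure D4:**
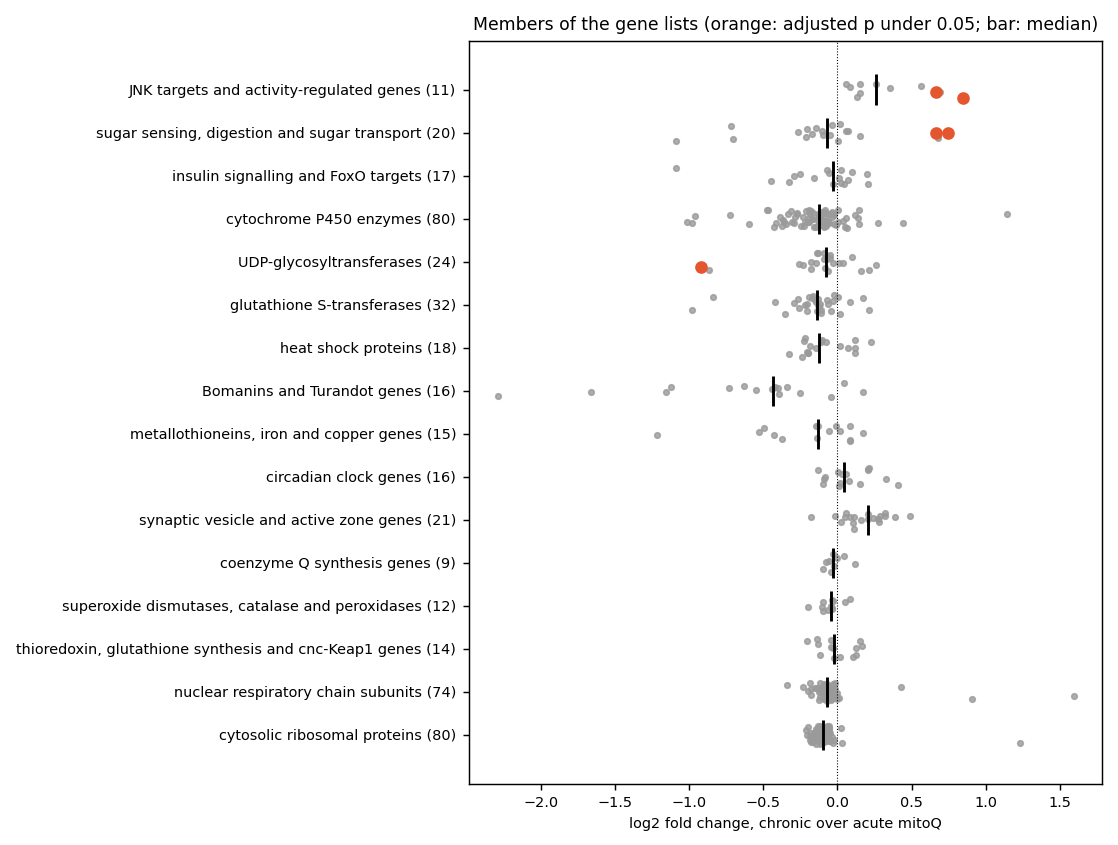
Log2 fold change of chronic over acute mitoQ (x axis) for every tested member of 16 gene lists (points, number tested in brackets), with the list median (bar). Members with an adjusted p under 0.05 (orange) are cbt, on both lists at the top, CG14186, daw and Ugt37B1. The median is -0.03 for the coenzyme Q list, -0.04 for the peroxidase list and -0.10 for the cytosolic ribosomal list.

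Gene length moved with these small shifts. Across the genes tested, the median log2 fold change was -0.08 in the shortest of 4 equal bins by length, -0.04 in the second, 0.01 in the third and 0.09 in the longest, and Spearman's rho of fold change with length was 0.44 (across genes, which share libraries and are not replicates). Each sample's deviation from the mean of the mitoQ samples followed length with a rho between -0.61 and 0.31 in acute and between -0.13 and 0.41 in chronic samples. With this trend as a covariate, the median was 0.06 for the respiratory chain, 0.05 for cytosolic ribosomal proteins and 0.04 for the synaptic genes, and 371 features (3.24%) were higher and 342 (2.99%) lower at an unadjusted p under 0.05. The medians of the first 2 lists thus turned sign with the covariate. Among the other lists whose median turned were the antimicrobial peptides (-0.21 without and 0.07 with the covariate), proteasome subunits, mitochondrial ribosomal proteins, the superoxide dismutase and peroxidase list and the thioredoxin and glutathione list. With the covariate 9 of 11 members of the JNK and activity-regulated list were positive, with a median of 0.15, and 59 of 80 P450 genes were negative. Of the 17 called features 14 were longer than the median of the genes tested (1973 bases). With the covariate the log2 fold change was 0.67 for CG14186 (0.85 without it), 0.50 for Cad74A (0.59) and 0.43 for CG13116 (0.38). Of the 17, 14 were called with the covariate as well. Ugt37B1, CG8026 and CG45085 were not. The fit with the covariate called 18 features in all. Those gained were Hsp83 (log2 fold change -0.37, adjusted p = 0.01 by edgeR), Phyhd1 (0.59, adjusted p = 0.0021 by edgeR), CG3348 (0.88, adjusted p = 0.01 by edgeR) and RabX5 (0.38, adjusted p = 0.0296 by edgeR).

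**Figure D5:**
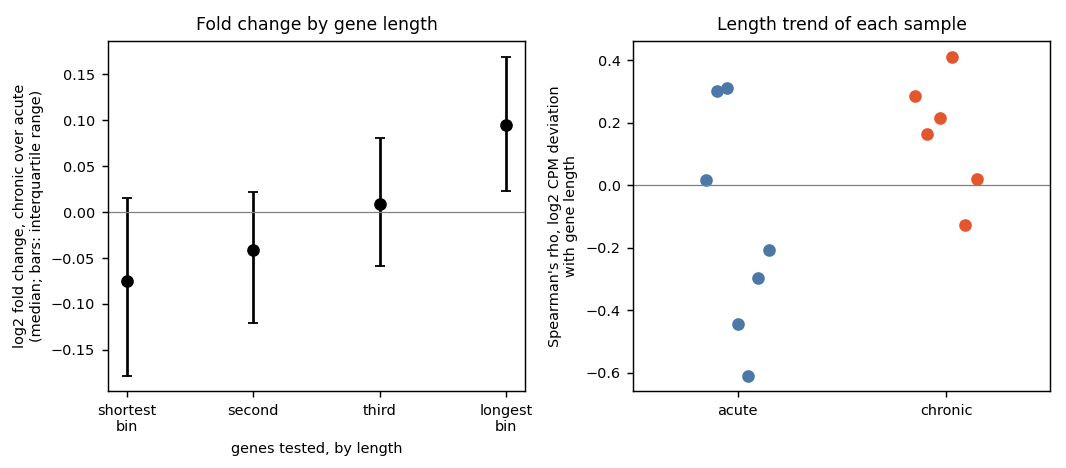
Left, median log2 fold change of chronic over acute mitoQ (y axis, bars give the interquartile range) in each of 4 equal bins of the genes tested by length, rising from -0.08 to 0.09. Right, Spearman's rho between gene length and the deviation of log2 CPM in each of the 7 acute and 6 chronic samples (points), which ranges more widely in the acute group.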

How the data were processed

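The members and gene lists were chosen with earlier results of these data known. Per the labels and methods, poly-A RNA was sequenced from directional libraries. The authors mapped reads to BDGP6 with the nf-core rnaseq pipeline, allowing up to 500 locations and clipping 12 bases, counted genes with featureCounts and transposable element families with TEcount, and deposited raw counts (17784 features, 40 samples). Versions of the counters and their strand setting are not given in the sources used here.

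The counts were fitted in 1 model of the 6 groups with edgeR 4.0.16 in R 4.3.3 (filterByExpr, TMM factors, estimateDisp, robust glmQLFit). Chronic DMSO replicate 7 was left out of the fit, leaving 39 samples, since the study dropped 1 chronic DMSO sample without naming it. P-values were adjusted by Benjamini-Hochberg over all 11452 features, with a threshold of 0.05. The SE was the log2 fold change divided by the square root of F. CPM are counts scaled by TMM-adjusted library sizes to 1 common total. A fold change was called within 1.5-fold from its 95% interval. Named are all features called and up to 4 members of each list by smallest p. Mondo, Hr38, alphaTub85E, Phyhd1, CG3348, RabX5 and the genes under the other observations were named after their values were seen. Samples of a group are separate pools of flies. Same-numbered samples did not deviate together (6 pairs, correlation from -0.19 to 0.24, 2 over 0.1). Positions are from the Ensembl annotation of BDGP6. Alternatives were all 40 samples, only the 13 mitoQ samples, DESeq2 size factors, DESeq2 1.42.0, limma 3.58.1 on cyclic LOESS values of log2(count + 2), other filters (no filter, and at least 10 counts in every sample of a mitoQ group), a fold change over 1.5, a replicate block, the ribosomal RNA share as covariate and each mitoQ sample left out. The length trend as covariate and the joint removal of chronic replicates 5 and 6 were added after seeing the data. The fit was tested on simulated data.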

Additional observations from a re-analysis of the deposited data

Results flagged for a closer look

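Dr in chronic mitoQ replicate 1 stood at 29.0 CPM, against 20.0 CPM in the nearest of the other chronic samples, a gap of 0.763 of the group's range. It was the only one of 34 groups of called features tested in this way (the 17 features in each of the 2 mitoQ groups) with a sample so far from the rest, and chance gives about 1 in 20. Without chronic replicate 1 the log2 fold change of Dr was 1.16 (adjusted p = 0.00365 by edgeR).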

How the results depend on the processing

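Across 25 alternative settings, the 17 called features kept their direction in all 425 combinations of feature and setting, and stayed under the threshold in 358. The count of 17 was 34 with only the 13 mitoQ samples in the fit (26 higher, 8 lower, 15 of the 17 among them) and 37 with DESeq2 (21 higher, 16 lower, all 17 among them), and 6 without chronic replicates 5 and 6. With each mitoQ sample left out in turn it lay between 10 and 19. The tests between arms gave 0 features by edgeR, save 1 against DMSO without chronic mitoQ replicate 1 (range 0 to 1 over samples left out), and DESeq2 gave 1 against DMSO and 2 against 2-AAPA (range 0 to 0 against 2-AAPA over samples left out). With a replicate block the count was 19, the log2 fold change of Dr was 1.40, and Ugt37B1 lost its call. No sample correlated best with its own number (0 of 6). No fit of only the mitoQ samples was possible for the tests between arms. At these depths the median half-width of the 95% interval was 0.26 on the log2 scale.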

Other observations

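Outside the gene lists, other features came close to the threshold or passed it when only the 13 mitoQ samples were fitted, and they were picked for this after their values were seen. CG8665, which encodes a relative of formyltetrahydrofolate dehydrogenase of one-carbon metabolism, had a mean of 31.4 CPM in acute and 11.4 CPM in chronic samples (log2 fold change -1.46 ± 0.33, adjusted p = 0.0619 with all groups and 0.0241 with the mitoQ samples alone by edgeR). The groups of CG8665 did not overlap. The bHLH repressor gene hry had means of 61.1 and 85.0 CPM (0.48 ± 0.12, adjusted p = 0.142 and 0.0147 by edgeR). Root, which encodes a protein of the ciliary rootlet, had means of 12.7 and 20.8 CPM (0.71 ± 0.18, adjusted p = 0.148 and 0.00747 by edgeR). The eye development gene eya had means of 31.0 and 38.4 CPM (0.31 ± 0.11, adjusted p = 0.433 and 0.00419 by edgeR). Chronic samples were all above acute samples for hry, Root and eya. The groups did not overlap for 129 of the 11452 features tested (1.13%), and these genes were picked with their values known. In the DMSO arm the log2 fold change was -1.12 for CG8665, 0.65 for hry, 0.71 for Root and 0.42 for eya, and in the 2-AAPA arm it was -1.87, 0.76, 0.97 and 0.22.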
